A study of Mus musculus with 17 samples.

Results

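The BCL2 family and its BH3-only death genes were followed in the dentate gyrus of KO and WT mice through 10 gene symbols: the BH3-only genes Bcl2l11 (BIM), Bbc3 (PUMA) and Pmaip1 (NOXA), the BNIP gene Bnip3, the survival genes Bcl2, Bcl2l1 (BCL-XL) and Mcl1, the effectors Bax and Bak1, and the repressor Bcl6. Every probe set that the platform annotation ties to 1 of these symbols alone was taken, which gave 27 of the 45037 mouse probe sets and 9 of the 10 genes. The expression of Bax is not analysed here.

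Affymetrix mouse expression arrays, which read a gene with 1 probe set or several, had been run on RNA from 8 KO and 7 WT samples. KO samples are labelled FOXO 1/3/4 KO and, by the methods of the study, had lost floxed Foxo1, Foxo3 and Foxo4 through hGFAP-cre, a transgene that acts in early common progenitors and so deletes the genes in neurons and glia alike. WT samples are labelled wild type, and the sources used here do not say whether they carried floxed alleles or the transgene. The methods place mice of both genotypes on a mixed FVB and B6 background, and name no drug for these arrays. For these samples the sources give neither age nor sex. The tissue label reads brain, and it is the methods that specify laser-captured dentate gyrus. A KO sample of the mark 433 and a WT sample of the mark 437 each have an additional array marked CA13, a mark that the sources do not explain, and these arrays were kept as groups of their own (KO CA13 and WT CA13). Each unmarked sample has a mark of its own, but no source says that the marks are separate animals, so p-values measure the spread between these samples, which may be technical in part.

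Levels are log2(signal + 32) after quantile normalization, so that 5 is the floor and a difference of 1 is a doubling of signal well above it. A probe set with a mean under 7 over the 15 unmarked arrays is called dim, and its fold change comes out too small on this scale. The arrays had median signals of 92.6 to 116.5 in KO and 88.1 to 112 in WT. The log2 ratio of the 3' over the 5' Gapdh control was 5.04 to 6.41 in KO and 5.11 to 6.23 in WT. The 3' control thus read far above the 5' control in every array. Where each probe set lies along its transcript was not looked up, and the part of this bias in dim values was not tested. The number of arrays also limits the precision. Foxo1, the targeted gene with the clearest loss, was lower in KO by a log2 fold change of -5.08 (standard error, SE, 0.30, limma adjusted p = 1.16e-07).

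The array labelled KO 433 went against the tissue that the methods name. Its 13 measured markers of dentate granule neurons averaged 8.01 on the log2 scale, against 10.84 to 11.07 in the other 7 KO arrays and 10.83 to 11.14 in the WT arrays, and its 11 measured markers of CA pyramidal neurons averaged 10.63, against 7.69 to 8.51 in the other KO arrays and 7.69 to 8.51 in the WT arrays. WT CA13 had the same profile, with 7.87 for granule and 10.71 for CA markers. KO CA13, from the same mark 433, read as the other dentate gyrus arrays did, with 11.02 and 7.77. Markers of interneurons averaged 10.19 in KO 433, against 9.44 to 9.98 in the other KO arrays. In WT CA13 they averaged 10.22, against 9.46 to 9.98 in the WT arrays. Markers of astrocytes averaged 10.31 in KO 433, under the 10.40 to 11.01 of the other KO arrays. In WT CA13 the astrocyte markers averaged 10.28, just under the 10.29 to 11.02 of the WT arrays. The labels of the 2 KO arrays of mark 433 may thus be exchanged, which was not tested. Below, both keep the group of their label, and several values that rest on KO 433 are also given without it. With KO CA13 in its place, 0 of the 27 members were called, as with KO 433.

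BCL2 family proteins set the threshold at which a cell opens its outer mitochondrial membrane and releases cytochrome c. Survival members hold the effectors in check, BH3-only proteins bind the survival members or activate the effectors, and much of this control is exerted by how much of each BH3-only mRNA a cell makes. FOXO factors are known to activate transcription of BH3-only genes in stressed cells, Bcl2l11 in neurons deprived of growth factor among them, and Bcl6 has been described as a FOXO target in other cell types.

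FOXO factors bind the core GTAAACA, so the RefSeq windows that reach from 250 bases before to 50 bases after each annotated start (GRCm38.p6) were searched for these letters on both strands, that is for GTAAACA and TGTTTAC. The core stood in 2 of the 15 windows of 9 member genes (Pmaip1 was not searched), and in 1199 of all 32851 windows (3.65%). These 2 windows, of Bcl2l11 and Bbc3, are printed to show where the letters lie, with the core in capitals. The Bcl2l11 window is chr2:128125788-128126087 on the plus strand, with the core starting 227 bases before the start. The Bbc3 window is chr7:16310011-16310310 on the plus strand, with the core read on the minus strand, its letters beginning 167 bases before the start, and there it is part of the longer GTAAACAA, which 403 of all windows hold (1.23%).
Bcl2l11: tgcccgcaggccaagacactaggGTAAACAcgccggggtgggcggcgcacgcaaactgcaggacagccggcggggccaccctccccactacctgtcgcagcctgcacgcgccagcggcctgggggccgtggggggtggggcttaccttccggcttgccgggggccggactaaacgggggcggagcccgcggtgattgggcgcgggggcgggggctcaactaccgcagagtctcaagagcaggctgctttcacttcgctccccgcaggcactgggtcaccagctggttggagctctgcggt
Bbc3: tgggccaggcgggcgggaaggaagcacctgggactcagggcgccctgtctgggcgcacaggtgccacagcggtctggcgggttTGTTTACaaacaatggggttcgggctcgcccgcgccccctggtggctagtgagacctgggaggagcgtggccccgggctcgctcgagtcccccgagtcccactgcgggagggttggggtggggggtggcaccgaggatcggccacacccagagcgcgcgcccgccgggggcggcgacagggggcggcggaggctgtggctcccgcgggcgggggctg
The windows of Bcl2, Bcl2l1, Mcl1, Bak1, Bax, Bcl6 and Bnip3 held no match, as did the other windows of Bcl2l11 and Bbc3. A match is a description of the letters and not of binding.

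KO and WT dentate gyrus did not separate in any member. Of the 27 probe sets, 0 were called by limma at an adjusted p under 0.05, where 0.0133% of all probe sets were (6 of 45037), and the adjusted p of every member was 1. At an unadjusted p under 0.05 there was 1 of 27, against 3.22% of all probe sets, and KO and WT overlapped in all 27, where 0.0289% of all probe sets did not overlap. The log2 fold changes ran from -0.53 to 0.28, 11 above and 16 below 0, with a median of -0.037 against 0.002 over all probe sets. The bounds of the 95% confidence intervals (CI) farthest from 0 were -0.97 and 0.82. The 14 probe sets that were not dim cover 6 genes (Bcl2l11, Bnip3, Bcl2, Bcl2l1, Mcl1 and Bcl6), while Bbc3, Pmaip1 and Bak1 were read by dim probe sets only.

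**Figure D1:**
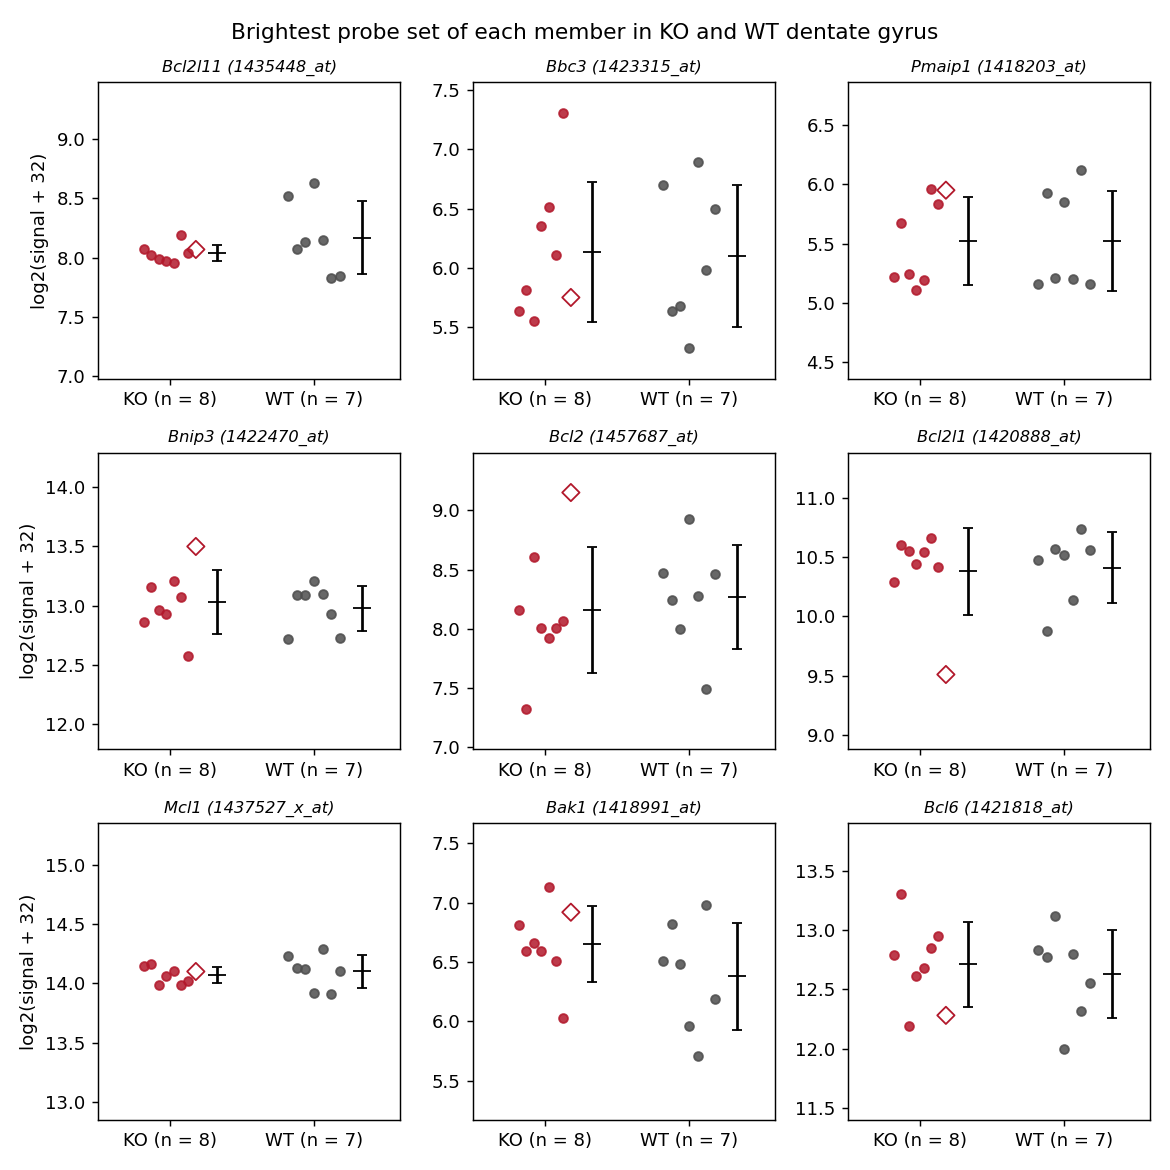
Quantile normalized log2(signal + 32) of the brightest probe set of each of the 9 member genes in KO and WT arrays, each point an array, the open diamond the array labelled KO 433 and bars the mean ± SD. KO and WT points overlap in all 9 panels, and the diamond is the lowest KO array in Bcl2l1 (9.51) and the highest in Bnip3 (13.50) and Bcl2 (9.15).

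Bcl2l11 encodes BIM, the BH3-only protein that can both activate the effectors and block every survival member. Its brightest probe set (1435448_at) had a lowest, median and highest level of 7.96, 8.03 and 8.19 in KO, against 7.83, 8.13 and 8.63 in WT. All 8 KO arrays lay inside the WT range, within a band narrower than that of the 7 WT arrays (SD 0.07 in KO and 0.31 in WT). The difference was -0.13 on the log2 scale (SE 0.14, 95% CI -0.43 to 0.17, two-sided exact permutation p = 0.28, n = 8 and 7). With KO CA13 in place of KO 433 it was -0.08. KO CA13 lay above the narrow KO band, at 8.45 against 7.97 to 8.19 in the KO arrays other than KO 433 (17 arrays normalized together). The second probe set that was not dim (1456005_a_at) had a log2 fold change of -0.24 (SE 0.24). It followed the first only loosely, with a Pearson correlation of 0.26 over the 15 arrays.

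The 1 member at an unadjusted p under 0.05 was the dim Bcl2l11 probe set 1426334_a_at. In KO its lowest, median and highest signals were 1.79, 6.61 and 23.4, against 3.54, 21.8 and 57.4 in WT. On the log2 scale this made 5.09, 5.23 and 5.81 in KO, against 5.15, 5.84 and 6.37 in WT, so that both groups stood close to the floor of 5 and 3 of the 8 KO arrays lay below every WT array. Its log2 fold change was -0.53 (SE 0.17, 95% CI -0.88 to -0.18, limma unadjusted p = 0.00535, adjusted p = 1). It was -0.52 without KO 433. The size depended on what was added before the logarithm, with -1.65 when 1 was added and -0.18 when a number above 32 was. The other 2 dim Bcl2l11 probe sets had 0.19 and -0.02, so the 5 probe sets of this gene did not share a direction. Which transcripts each probe set reads was not tested.

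Bbc3 and Pmaip1, whose proteins PUMA and NOXA are BH3-only proteins best known as p53 targets, were each read by 1 dim probe set. The Bbc3 signal was lowest at 15.6, had a median of 29.6 and was highest at 144 in KO, against 6.93, 31.5 and 75.1 in WT. The highest array was KO MS15, and the remaining KO arrays were interspersed with the WT arrays. The log2 fold change was 0.03 (SE 0.28, 95% CI -0.56 to 0.62, two-sided exact permutation p = 0.92, n = 8 and 7). The Pmaip1 signal was lowest at 2.42, had a median of 11.3 and was highest at 32.6 in KO, against 3.29, 5.13 and 39.5 in WT. All 15 arrays lay between 5.11 and 6.12 on the log2 scale, close to the floor. Its log2 fold change was 0.00 (SE 0.19, 95% CI -0.39 to 0.40, two-sided exact permutation p = 0.99, n = 8 and 7). Both probe sets are dim, so each interval bounds the fold change on this scale only, where it comes out too small. It does not bound the change in mRNA. With 1 added before the logarithm the log2 fold change was 0.12 for Bbc3 and 0.07 for Pmaip1.

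Among the survival genes, Mcl1, whose short-lived protein binds BIM, NOXA and BAK, had the most probe sets. Its 6 probe sets, none of them dim, had log2 fold changes between -0.09 and 0.08. The least bright (1416881_at) had 0.08, with a 95% CI of -0.29 to 0.44. The brightest (1437527_x_at) had a lowest, median and highest level of 13.99, 14.08 and 14.16 in KO, against 13.91, 14.12 and 14.29 in WT. All KO arrays lay within the WT range, and the difference was -0.03 (SE 0.08, 95% CI -0.21 to 0.15, two-sided exact permutation p = 0.61, n = 8 and 7). Agreement between the probe sets of Mcl1 over the 15 arrays ran from a Pearson correlation of -0.33 to 0.90, the highest between 1456243_x_at and 1456381_x_at.

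Bcl2l1 encodes BCL-XL, a survival protein of mature neurons. Its bright probe set (1420888_at) was lowest at 9.51, had a median of 10.49 and was highest at 10.66 in KO, against 9.88, 10.52 and 10.74 in WT. The lowest KO array was KO 433, and the next was at 10.29. The log2 fold change was -0.04 (SE 0.17, 95% CI -0.40 to 0.32, two-sided exact permutation p = 0.84, n = 8 and 7), and 0.09 without KO 433. The 3 dim Bcl2l1 probe sets had log2 fold changes of 0.16, -0.40 and -0.06, none at an unadjusted p under 0.05.

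Bcl2, the founding survival gene of the family, had 5 probe sets with log2 fold changes between -0.11 and 0.22. The brightest (1457687_at) was lowest at 7.32, had a median of 8.04 and was highest at 9.15 in KO, against 7.49, 8.28 and 8.93 in WT. The KO range thus held the whole WT range, with KO 433 at its upper end and KO 903 at its lower end. The difference was -0.11 (SE 0.24, 95% CI -0.62 to 0.40, two-sided exact permutation p = 0.67, n = 8 and 7), and it was -0.25 without KO 433, 0.01 without KO 903 and -0.29 with KO CA13 in place of KO 433. The 3 Bcl2 probe sets that were not dim correlated with each other at only -0.09 to 0.38 over the 15 arrays.

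Bak1, the effector that forms pores in the outer membrane, was read by 2 dim probe sets. The brighter (1418991_at) had signals of 41.1, 66.8 and 99.4 (lowest, median and highest) in KO, against 17.2, 53.4 and 105 in WT. On the normalized log2 scale the KO arrays ran from 6.03 to 7.13, against 5.71 to 6.98 in WT. There, 1 KO array lay above the WT range, which was not so in the signals before normalization. The log2 fold change was 0.28 (SE 0.21, 95% CI -0.16 to 0.71, two-sided exact permutation p = 0.19, n = 8 and 7), the highest of all 27, and 0.15 with KO CA13 in place of KO 433. The dimmer probe set had -0.13.

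Bnip3 encodes a protein of the outer mitochondrial membrane that acts as a receptor for mitophagy, is induced by hypoxia and is known as a FOXO target in muscle. Its single probe set was lowest at 12.58, had a median of 13.01 and was highest at 13.50 in KO, against 12.72, 13.09 and 13.21 in WT. The highest KO array was KO 433, and the other 7 KO arrays spread around the WT arrays. The log2 fold change was 0.05 (SE 0.13, 95% CI -0.22 to 0.32, two-sided exact permutation p = 0.69, n = 8 and 7), and -0.01 without KO 433.

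Bcl6, a zinc finger repressor that is no BCL2 homologue despite its name, was lowest at 12.19, had a median of 12.73 and was highest at 13.30 in KO, against 12.00, 12.77 and 13.12 in WT (1421818_at). Its arrays spread widely and alike in both genotypes (SD 0.36 in KO and 0.37 in WT). The log2 fold change was 0.08 (SE 0.18, 95% CI -0.29 to 0.45, two-sided exact permutation p = 0.68, n = 8 and 7). The second, dim Bcl6 probe set had -0.29. For these single tests, 6435 splits of the 15 arrays were enumerated, and 0.00016 is the smallest p they allow.

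**Figure D2:**
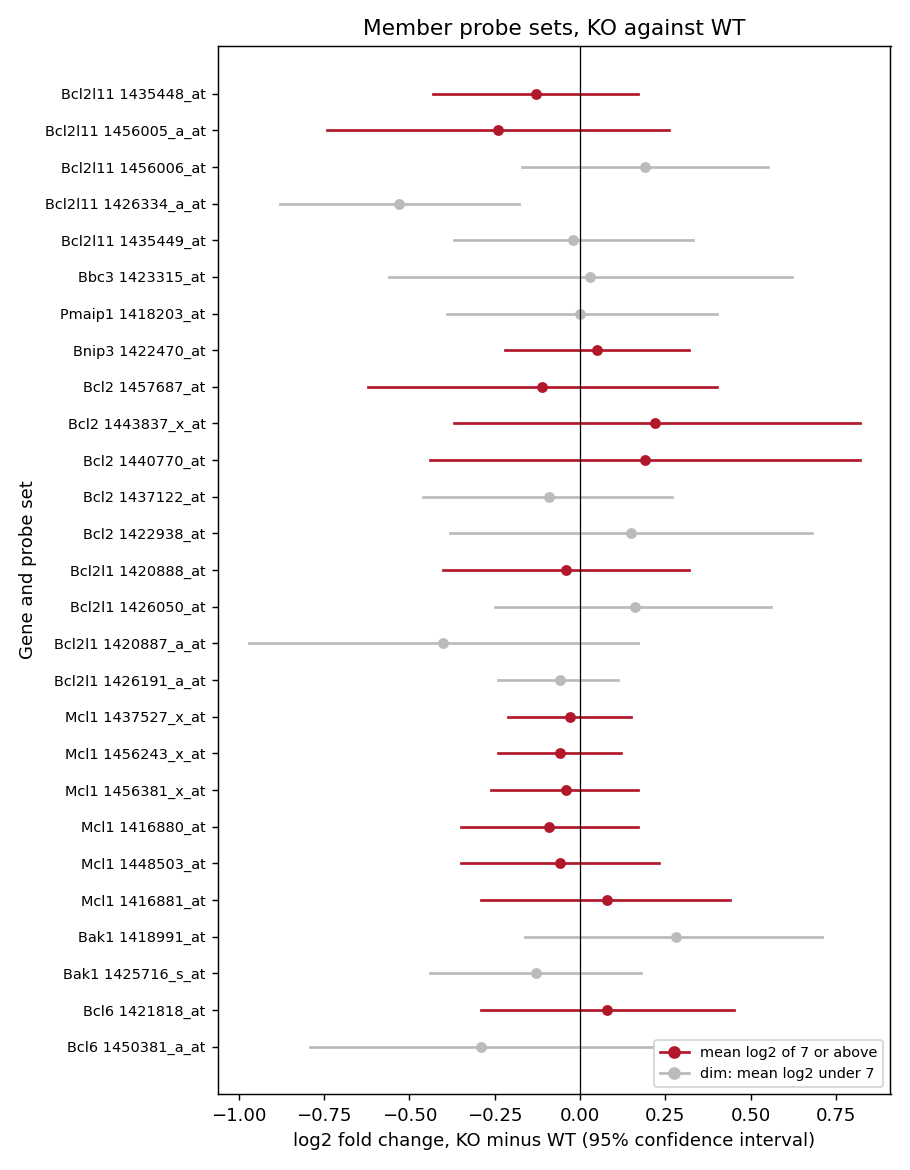
Log2 fold change of KO minus WT with its 95% CI for the 27 member probe sets, in grey where dim. The interval of 26 of them includes 0, and the exception is the dim Bcl2l11 probe set 1426334_a_at at -0.53.

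The other genes around the family gave 1 call. Of 121 genes in 13 lists, from further BCL2 homologues to caspases, p53 targets and upstream kinases, 108 were measured by 1 probe set each, the brightest. Only Foxo1 was called by limma. At an unadjusted p under 0.05 there were 6 genes, 3 higher and 3 lower in KO, against 3.05% of all 18193 genes so measured. Among the 3 lower were Foxo1 and Foxo3, which are deleted in KO by design, so the count of 6 is not one of the surrounding genes alone. The median log2 fold change of the 108 was 0.02 against 0.009.

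Bmf, a BH3-only gene whose protein is known to be held at the cytoskeleton until the cell is stressed, had the smallest p of the listed genes that belong to the family. In KO its level was lowest at 7.05, had a median of 7.39 and was highest at 7.69, against 7.66, 7.79 and 8.15 in WT. Below every WT array lay 7 of the 8 KO arrays, and 6 of the 7 WT arrays lay above every KO array. Since Bmf was singled out for its small p in these same arrays, its permutation p is a description only. The log2 fold change was -0.43 (SE 0.14, two-sided exact permutation p = 0.000932, n = 8 and 7), while limma gave an unadjusted p of 0.0079 and an adjusted p of 1. It was -0.46 without KO 433 and -0.43 within each of the 2 array series that the labels number. The 3 Bmf probe sets ran from -0.43 to 0.27 and so did not share a direction.

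The other BH3-only and BNIP genes Bad, Bid, Bik, Hrk, Bnip1, Bnip2 and Becn1 had log2 fold changes between -0.09 and 0.26, all at an unadjusted p above 0.05. Hrk, at -0.09, was at 0.02 without KO 433. The survival homologues Bcl2l2 (0.12) and Bcl2l10 (0.23, dim) did not pass either. The effector homologue Bok had 0.49 (SE 0.40), and 0.13 without KO 433. In the list of upstream kinases and transcription factors, the immediate early gene Egr1 had 0.67 (limma unadjusted p = 0.00358, adjusted p = 1), 0.54 without KO 433, and Foxo3, deleted in these mice, had -0.46 (limma unadjusted p = 0.014, adjusted p = 1). Foxo4, the third deleted gene, was read by a dim brightest probe set at 0.43 (limma unadjusted p = 0.146), 0.60 without KO 433, and its other probe set had -0.56. Mybl2 (dim) had 0.35 and Btrc, a subunit of a ubiquitin ligase, 0.31. Without KO 433, Mybl2 (limma unadjusted p = 0.0771) and Btrc (0.0586) were no longer under 0.05, while Jun, Foxo4 and Pink1 were, so that 4 of the 6 genes remained among 7. With KO CA13 in place of KO 433, Egr1 was at 0.44.

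In the 12 measured genes of the apoptosome and caspases, the 7 inhibitors of apoptosis, the 10 of the death receptor pathway and the 12 of the p53 pathway, 0 passed an unadjusted p under 0.05. The smallest p among those 4 lists belonged to Tnfrsf1a, a receptor for TNF, at 0.54 (limma unadjusted p = 0.0652, and 0.0441 with KO CA13 in place of KO 433), with Trp73, a relative of p53 (dim, 0.35, limma unadjusted p = 0.0948), and Cdkn1a, the cell cycle inhibitor p21 (0.48, limma unadjusted p = 0.095), the lowest of the p53 pathway. Pink1, the kinase that starts mitophagy on damaged mitochondria, had the smallest p of the mitophagy and hypoxia list at -0.46 (limma unadjusted p = 0.0513), and -0.51 without KO 433. Opa1, a fusion protein of the inner mitochondrial membrane, had the smallest p of the mitochondrial list at 0.26 (limma unadjusted p = 0.0927).

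**Figure D3:**
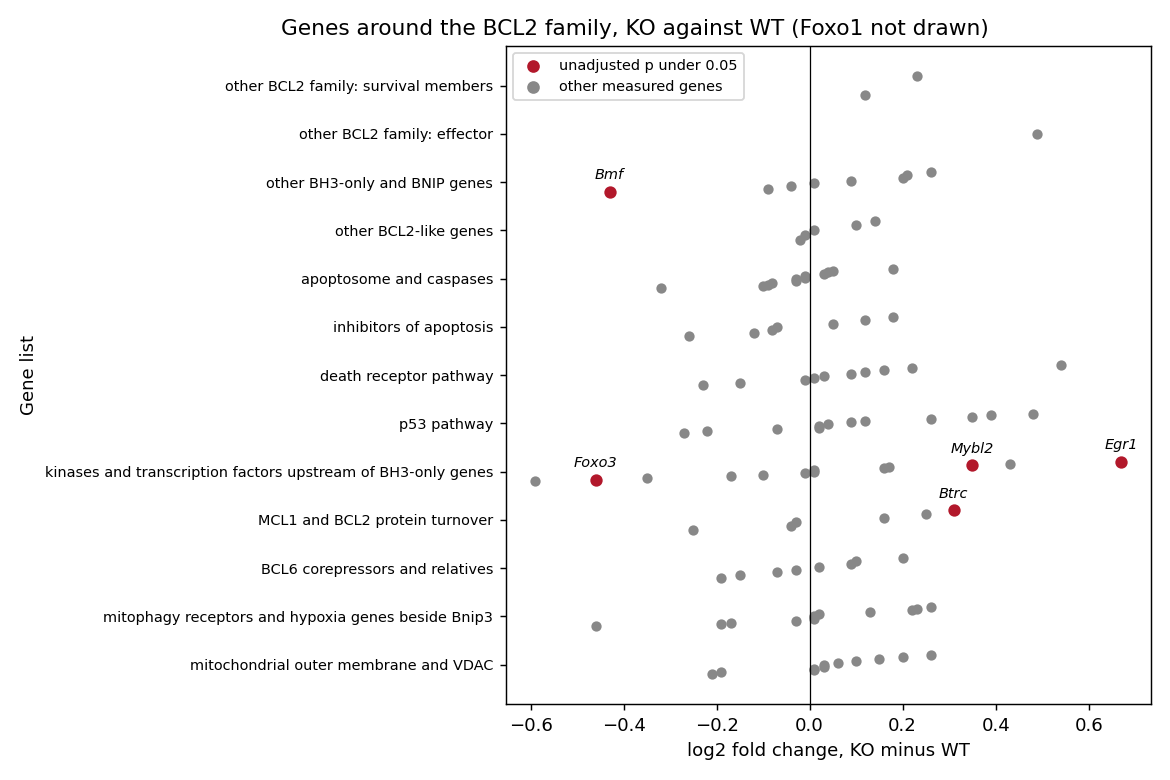
Log2 fold change of KO minus WT for the measured genes of 13 lists around the BCL2 family, 1 point per gene at its brightest probe set, in red at an unadjusted p under 0.05. Foxo1, at -5.08, is beyond the axis and not drawn, and of the named points only Bmf (-0.43) belongs to the BCL2 family.

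Across hippocampal fields, the members were set against arrays with the CA profile: WT CA13 beside the WT arrays, and KO 433 beside the other 7 KO arrays, all normalized together. In limma, with WT CA13 as a single array assumed to vary as the others, 0 of 27 members were called (smallest adjusted p 0.648), against 51 called probe sets in all (0.113%). At an unadjusted p under 0.05 there were 0 of 27 members, against 9.27% of all probe sets. By position, WT CA13 lay above all 7 WT arrays in 4 member probe sets and below in 1, while 30.7% of all probe sets lay outside. KO 433 lay above the other 7 KO arrays in 6 and below in 2, with 35.3% of all probe sets outside. In 2 of the 27, Bnip3 and Mcl1 1456381_x_at, both arrays lay outside on the same side, where 12.8% of all probe sets did, so the members did not stand out by this measure. In RNA of captured tissue, fewer cells of a type and less RNA per cell cannot be told apart.

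Bnip3 was at 13.36 in WT CA13, against a lowest, median and highest of 12.72, 13.09 and 13.22 in WT. In KO 433 it was at 13.50, against 12.58, 12.97 and 13.22 in the other KO arrays. Both CA-profile arrays thus exceeded all dentate gyrus arrays of their genotype, and KO CA13, with the granule profile, was at 12.87 and inside the KO range. The log2 difference of WT CA13 from WT was 0.37 (SE 0.26, limma adjusted p = 0.742). The Mcl1 probe set 1456381_x_at was at 13.39 in WT CA13, against 12.92 to 13.27 in WT, and at 13.39 in KO 433, against 12.85 to 13.29 in the other KO arrays. The brightest Mcl1 probe set had no such shift, with 14.10 in WT CA13 and 14.12 in KO 433, both within the range of their genotype.

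Bcl2l1 was low in KO 433, at 9.50 against 10.28, 10.53 and 10.65 (lowest, median and highest) in the other KO arrays. In WT CA13 it was at 10.07, inside the WT range of 9.87 to 10.73 though below its median of 10.51. The pair of CA-profile arrays therefore did not agree on leaving the range, and KO CA13, at 10.25, was just under the other KO arrays too. Bcl2 was high in KO 433 by its brightest probe set, at 9.15 against 7.34 to 8.61 in the other KO arrays, and at 8.79 in WT CA13 it lay within the WT range of 7.51 to 8.93. Another Bcl2 probe set, 1440770_at, was at 8.77 in WT CA13, just over the highest WT array at 8.72. In KO 433 it was within the KO range. The Bcl2 probe set 1443837_x_at was at 8.73 in KO 433, over the 7.38 to 8.25 of the other KO arrays. It was over them in KO CA13 too, at 8.28, and in WT CA13, at 8.27, it was within the WT range. Bcl2l11, Bcl6, Bbc3 and Pmaip1 lay within the range of their genotype in both CA-profile arrays by their brightest probe sets.

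**Figure D4:**
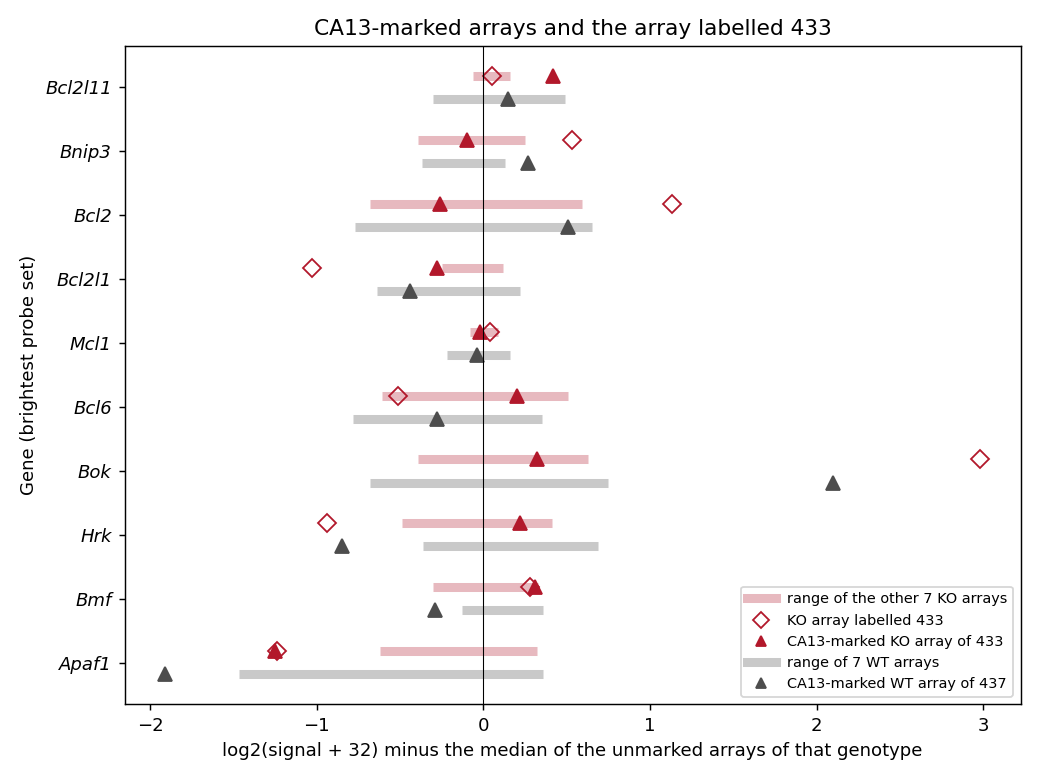
Level of the brightest probe set of 6 member genes and of Bok, Hrk, Bmf and Apaf1 in WT CA13 (grey triangle), KO 433 (open diamond) and KO CA13 (red triangle), each minus the median of the unmarked arrays of its genotype (for KO, without KO 433), with bands for the range of those arrays. Bok lies far right of the bands in WT CA13 (11.23) and KO 433 (12.08) and inside them in KO CA13 (9.42).

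The family gene with the widest gap between the profiles was outside the member list. Bok, an effector homologue that is held low by rapid turnover of its protein, was at 11.23 in WT CA13, against a lowest, median and highest of 8.45, 9.13 and 9.88 in WT. In KO 433 it was at 12.08, against 8.71, 9.10 and 9.73 in the other KO arrays. In KO CA13 it was at 9.42, inside the KO range, so both arrays with CA markers were high and the 15 arrays with granule markers were not. The log2 difference of WT CA13 from WT was 2.18, with a limma adjusted p of 0.384 over all 17 arrays, of 0.0208 without KO 433 and of 0.10 over WT arrays only. Bok also differed with the array series of the labels: the 4 unmarked arrays of the smaller series read 9.70 and 9.74 in KO and 9.52 and 9.88 in WT, while in the larger series the KO arrays other than KO 433 read 8.71 to 9.11 and the WT arrays 8.44 to 9.25. WT CA13 and KO 433 both belong to the larger series.

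Some listed genes lay outside on the same side in both CA-profile arrays, as did many genes outside the lists. Of the 108 listed genes, 13 lay above and 11 below the arrays of their genotype in both, 24 in all. Of all genes measured by 1 probe set, 16.3% did so (2961 of 18193), and whether the listed genes exceed this share was not tested. The lists also hold genes other than death genes, such as kinases and mitophagy genes. Apaf1, Hrk, Bid and Jun are examples that were picked after their values were seen. Apaf1, the scaffold of the apoptosome, was at 7.50 in WT CA13, against 7.94 to 9.77 in WT, and at 7.87 in KO 433, against 8.49 to 9.43 in the other KO arrays. KO CA13 read 7.86 for Apaf1, however, so that gene was as low in an array with granule markers. Hrk, a BH3-only gene of neurons, was at 8.56 in WT CA13, against 9.05 to 10.10 in WT, and at 8.52 in KO 433, against 8.97 to 9.87 in the other KO arrays. Bid, the BH3-only protein cleaved by caspase-8, was at 8.72 in WT CA13, against 7.41 to 8.34 in WT, and at 8.50 in KO 433, against 7.71 to 8.23 in the other KO arrays. KO CA13, with granule markers, read 6.55 for Bid and so left this range further, on the lower side. Jun, a transcription factor upstream of BH3-only genes, was at 9.66 in WT CA13, against 11.66 to 12.15 in WT, and at 9.11 in KO 433, against 11.50 to 11.98 in the other KO arrays. Only Foxo1 among these genes was called by limma in WT CA13 over all 17 arrays, and with KO 433 left out Jun, Egr1, Ldha and Bok passed as well.

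The genes whose pattern over the 15 unmarked arrays was most like that of a member were searched among 11418 genes that were not dim, with Pearson's r as the measure and as a description, since these genes were picked as the highest of many. Bnip3 was most like Vcpkmt (r = 0.92) and Ralyl (0.86), and without KO 433 these values were 0.88 and 0.78. Bcl2l1 was most like Irf7 (0.92) and Aldh9a1 (0.88), which without KO 433 were at 0.80 and 0.70. For Mcl1 the genes were Arih1 (0.87) and Emc6 (0.85), for Bcl6 Rnf19a (0.85) and Kdm7a (0.83), for Bcl2 Epb41l4b (0.85) and Vgll2 (0.80), and for Bcl2l11 Pde10a (0.74) and Zfp811 (0.71). For the dim members they were Hacd1 (0.80) and Prr3 (0.77) for Bbc3, Ggt5 (0.86) and Slc12a9 (0.82) for Pmaip1, and Map3k14 (0.75) and Cgrrf1 (0.74) for Bak1. The highest value for Bcl2l11 was the lowest among the 6 members that were not dim. No other member was among the 2 genes most like any of these 6.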

How the data were processed

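The authors deposited 1 signal intensity per probe set and array for 17 arrays, on a linear scale. MAS5 is the tool in the submitters' processing notes, whereas the methods of the study give RMA and SAM with a fold threshold. The deposited values are linear intensities and were used as such, and neither RMA nor SAM was run. Which genome build the probe sets were designed on is not stated in the sources.

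The 64 control probe sets were removed. The values became log2(signal + 32), quantile normalized over the 15 unmarked arrays, or over all 17 for the comparison with the CA13-marked ones. Each group had 1 mean in a fit of limma 3.58.1 (R 4.3.3), with eBayes, an intensity trend and Benjamini-Hochberg adjustment over all 45037 probe sets, and a call needed an adjusted p under 0.05. Single probe sets were also tested over all splits of the arrays. The steps were tested on simulated data. Fold changes are KO minus WT, or WT CA13 minus WT. Promoter windows are those of RefSeq on GRCm38.p6.

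The members, the gene lists and the rules were chosen with earlier results of these data known. The text names every member, every listed Bok, BH3-only and survival gene, up to 3 genes of each other list with the smallest p, and the 2 genes most like each member. Mybl2, Foxo4, Apaf1, Jun, Ldha and the CA-profile values of Hrk and Bid were picked after their values were seen. Alternatives covered the scaling, the number added before log2, a filter on dim probe sets, the variance trend, array weights and the choice of samples. They also covered the array series, a Gapdh 3' to 5' covariate, leaving out each array in turn, and an unpaired t-test with Benjamini-Hochberg adjustment. The methods name an unpaired t-test for comparisons of 2 groups in general, and SAM for the arrays.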

Additional observations from a re-analysis of the deposited data

Results flagged for a closer look

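Within a group, 2 of 54 sets of values (27 member probe sets in KO and in WT) held an array far from the others, and chance alone sets an array apart in about 1 in 20 such groups. The bright Bcl2l1 probe set 1420888_at was lowest in KO at 9.51 on the log2 scale, in the array labelled KO 433, with the next KO array at 10.29 and the highest at 10.66. That array also had the marker profile of CA pyramidal neurons, and the part of this profile in the value was not tested. The dim Bcl2l11 probe set 1435449_at was highest in KO at 6.46, in the array KO 384, with the next at 5.71 and the lowest at 5.13.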

How the results depend on the processing

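With 27 member probe sets at an adjusted p of 1, the count of 0 called members in KO against WT was the same under every alternative run. Values near 0 changed sign with the array series: within the smaller series (2 KO and 2 WT arrays) Bcl2l11 was at 0.09, Bbc3 at -0.12, Pmaip1 at -0.09, Bcl2 at 0.08 and Bcl2l1 at 0.16 (log2, brightest probe sets). Without KO 433, Pmaip1 was at -0.06, Bnip3 at -0.01 and Bcl2l1 at 0.09, and with KO CA13 in place of KO 433 these were at -0.09, -0.03 and 0.06. Array weights gave Pmaip1 -0.04 and Bcl2l1 0.04, the Gapdh covariate gave Pmaip1 -0.02, and more than 32 added before log2 gave Pmaip1 -0.0018. For WT CA13 minus WT, the brightest Mcl1 probe set was at 0.12 without quantile normalization. The cause of these changes was not tested.

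Leaving out each array in turn gave ranges of -0.19 to -0.06 for Bcl2l11 (-0.06 without WT 385), 0.17 to 0.37 for Bak1 (0.17 without WT 393), -0.14 to 0.16 for Bbc3, -0.06 to 0.10 for Pmaip1, -0.01 to 0.12 for Bnip3, -0.25 to 0.01 for Bcl2, -0.13 to 0.09 for Bcl2l1, -0.06 to 0.0019 for Mcl1 and -0.03 to 0.16 for Bcl6, and 3 to 8 called probe sets in all (3 without WT 437). The number of members at an unadjusted p under 0.05 was 0 under the filter on dim probe sets, which removes the 1 found, and 2 within the smaller series (a Bcl2l1 and a Bcl2 probe set, both dim). Of all probe sets, limma called 3 in the larger series alone and 0 in the smaller one, where 1770 had an unadjusted p under 0.05. The unpaired t-test called 4 over the 15 arrays. For WT CA13 against WT, 113 were called with 1 added before log2, 808 without KO 433 and 358 over WT arrays only, against 51.

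No paired analysis of KO against WT was possible. In the labels, the unmarked arrays carry a mark each and share no replicate number across genotypes. WT CA13 shares the mark 437 with an unmarked WT array, and limma treated these 2 arrays as independent. Between these 2 arrays alone the log2 difference was 0.27 for Bnip3, 0.78 for Bcl2 and -0.64 for Bcl6 (brightest probe sets). Against all WT arrays it was 0.37, 0.52 and -0.14. Signals near the floor limit Bbc3, Pmaip1 and Bak1, and 1 WT CA13 array gives no spread of its own.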
